A study of Mus musculus with 21 samples.

Results

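Integrins, laminins and the proteins of the hemidesmosome hold basal keratinocytes to the basement membrane. The genes described here were chosen by symbol: every integrin α and β chain, every laminin chain, and 15 named partners, which are the hemidesmosome proteins Dst, Plec and Cd151, the matrix proteins Fn1, Tnc, Nid1, Nid2 and Hspg2, and the adaptors Fermt1, Fermt2, Tln1, Vcl, Pxn, Ptk2 and Ilk. The rule found 53 of the 22050 entries of the expression table, with 52 different symbols, because Itgam has 2 entries. Lamb4 was not analysed here. Of the 53 entries, 42 had a mean value of at least 1 and were tested. The other 11 did not exceed 3 reads in any sample, and Itga9, Itgad and Nid2 were at 0 in all 8 samples.

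An integrin is a pair of one α and one β chain that spans the cell membrane. Outside the cell it binds matrix proteins such as laminin or fibronectin, and inside it is coupled through adaptors to the cytoskeleton. In basal keratinocytes the Itga6 and Itgb4 chains form the core of the hemidesmosome and are tied to keratin filaments by plectin and by the epithelial product of Dst, whereas the Itga3 and Itgb1 chains are coupled to actin in focal adhesions. Both receptors bind the epidermal laminin that holds the chains encoded by Lama3 and Lamb3. Loss of any of these hemidesmosome genes or of these laminin chains is known to cause skin blistering.

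The comparison asked how these genes differed in keratinocytes that had carried an active p16 transgene for a long time. mRNA was sequenced in sorted GFP+ keratinocytes of K5-rtTA/tet-GFP/tet-p16 mice (dorsal skin), in which doxycycline switches on human p16 and GFP together, and of K5-rtTA/tet-GFP control mice, in which it switches on GFP alone. All mice were of a mixed FVB, C57Bl and 129sv background and received doxycycline from 3 weeks of age for 6 months, so the controls shared the rtTA, the GFP and the drug. The keratin 5 promoter restricts the rtTA to basal keratinocytes of the epidermis and its appendages, and cells positive for CD140a, CD45 or CD31 were gated out before sorting. Each group had 4 samples, and each sample held 80000 cells from a pool of 3 mice. A second profiling with 13 samples was not analysed here.

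Between 1760953 and 3414362 reads fell on genes in the control samples and between 2884544 and 3202975 in the p16 samples. The human p16 transcript had normalized values of 0.7, 1.3, 2.5 and 1.5 in the controls and 1.6, 10.1, 16 and 7.4 in the p16 samples, so the library labelled p16 replicate 1, with 2 reads, lay within the control range. The GFP transcript was between 4152 and 5912.6 in the controls and between 3161.8 and 3978.8 in the p16 samples, lower in all 4. Krt5, the defining basal keratin, had the highest count in every library, between 11761 and 12279 reads, although total reads differed far more. Values of the most abundant genes, including Krt5, Krt14 and the hair follicle keratin Krt15, therefore did not scale with depth. All counts of the genes of this module stayed at or below 3730 reads.

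Markers of other cells moved with the groups. Of 8 hair follicle bulge markers, 6 were lower in p16 samples (Cd34, Lhx2, Tcf7l1, Sox9, Nfatc1 and Krt15), against 2.61% of all genes tested. Lgr5 did not pass (limma adjusted p = 0.241), and Postn was 1.74-fold higher on average without passing (limma adjusted p = 0.272). The summed normalized value of the 7 markers other than Krt15 ran from 2826 to 3608 in controls and from 1220.1 to 2483 in p16 samples. Krt15 was left out of this sum because its values did not scale with depth, and without it 5 of 7 markers were lower. Of 6 tested melanocyte markers, Dct and Tyrp1 were lower (sum 133.5 to 522.3 against 48.4 to 142.9). Of 6 tested fibroblast entries, Dcn was 17.7-fold higher without overlap (mean 5.85 against 104, limma adjusted p = 0.000233) and Fbln1 1.94-fold lower. The sum of the fibroblast markers ran from 70.9 to 142.1 in controls and from 72.4 to 282.8 in p16 samples. The collagen genes Col1a1 and Col1a2 had log2 differences of 1.09 and -1.51 that did not pass (limma adjusted p = 0.285 and 0.0571). The defining fibroblast genes Pdgfra and Pdgfrb stayed at or below 3.5, and Lum was at 0. Of the suprabasal markers Lor was higher, and Ivl and Sbsn were lower. None of the tested T cell, Langerhans and myeloid, endothelial or smooth muscle markers passed the test. Thy1, listed for T cells, was at 582.1 to 791.8 in controls and at 674.8 to 2908.2 in p16 samples (limma adjusted p = 0.214). All p16 values lay above all controls for Cd207 and below them for Cd3d, both at 15 or less (limma adjusted p = 0.0922 and 0.172). Cd74 and Cspg4 overlapped, with means of 84.6 and 273 in controls and 94.1 and 227 in p16 samples. Ptprc stayed at or below 1.6, and Cdh5, Kdr and Emcn were at 0 throughout. The part of these shifts in the differences described next was not tested. In pooled cells, fewer cells of a type and less RNA per cell cannot be told apart.

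Of the 42 tested entries, 3 rose in p16 cells, namely Itga3, Itgb5 and Lamb2, and 1 fell, namely Fermt2 (limma on log2(normalized value + 1), Benjamini-Hochberg adjusted p under 0.05 over all 12782 genes tested). Among all genes tested, 1.24% were called higher and 2.61% lower. Every p16 value lay above every control value for 5 members (Itga3, Itgb5, Lamb2, Lama1 and Fn1), against 4.19% of all genes, and below for Fermt2 and Nid1, against 5.63% of all genes. In mean log2 value 25 members were higher and 17 lower, against 49.6% and 50.4% of all genes. The median log2 difference of the 42 entries was 0.14 and that of all genes was -0.0027. With an unadjusted limma p under 0.05 the counts were 9 higher and 4 lower, against 7.02% and 8.93% of all genes. Leaving out the library labelled p16 replicate 1 left 2 members higher and 1 lower, since Lamb2 lost its call (0.539% and 1.5% of all genes), and leaving out p16 replicate 4, which stood farthest from the other p16 libraries, gave 3 higher and 1 lower, with Fn1 called in place of Lamb2 (1.53% and 2.68% of all genes). The separate groups of points are visible in the plot of normalized read counts for 16 of the genes.

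**Figure D1:**
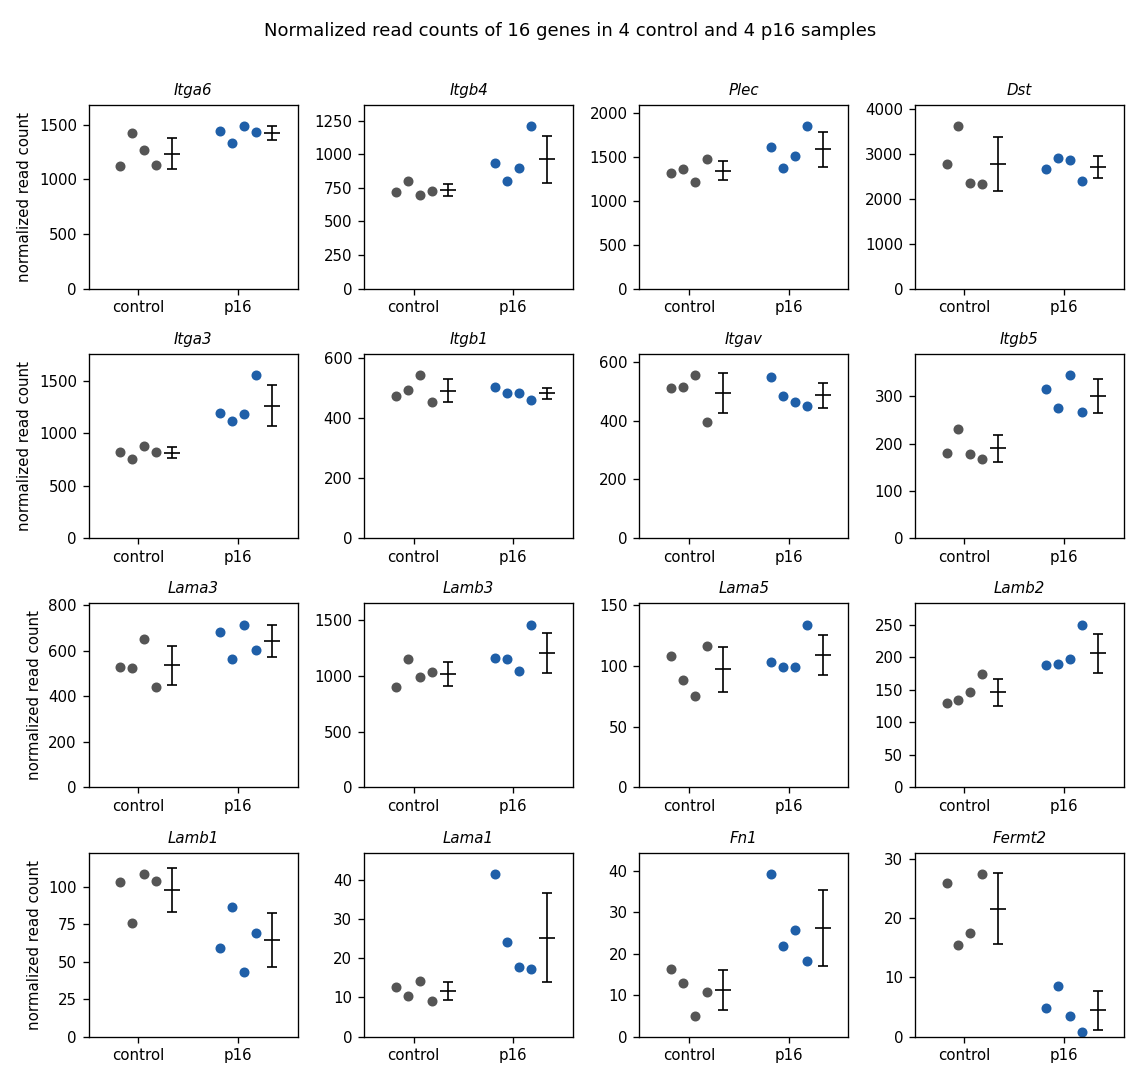
Normalized read counts (y axis, linear, from 0) of 16 members in the 4 control samples (grey) and the 4 p16 samples (blue). Each point is 1 sample in the order of its replicate number, and the black line with bars is the mean ± SD. Itga3, Itgb5 and Lamb2 lay higher and Fermt2 lower in p16 samples without overlap, while the points of Itgb1, Itgav and Dst overlapped.

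Itga3, the α chain that pairs with Itgb1 to form a laminin receptor of keratinocytes, rose (GRCm38 chr11:95044474-95076801, minus strand). Its normalized read counts were 817.5, 750.8, 877.8 and 815.8 in the controls and 1196.1, 1119.6, 1181.0 and 1553.2 in the p16 samples. All p16 samples lay well above all controls, with p16 replicate 4 the highest. The mean rose from 815 ± 51.9 to 1262 ± 197 (SD, n = 4 each), or 1.55-fold. The log2 difference was 0.62 with an SE of 0.11 (limma adjusted p = 0.00469), and the call held in all 18 other settings tried, with a highest adjusted p of 0.0239. By a two-sided exact permutation test over the samples, any gene without overlap between the groups, Itga3 included, has a p of 0.0286, the smallest this design allows.

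Itgb5, a β chain that pairs with the αv chain to bind vitronectin, also rose (chr16:33829665-33949338, plus strand). Its values were 181.0, 231.0, 178.7 and 168.1 in the controls and 315.8, 276.4, 344.9 and 266.4 in the p16 samples. The lowest p16 value, 266.4 in replicate 4, lay above the highest control, 231.0 in replicate 2. The mean rose from 190 ± 28.1 to 301 ± 36.3 (SD, n = 4 each), or 1.59-fold, with a log2 difference of 0.67 and an SE of 0.12 (limma adjusted p = 0.00711). The call held whichever library was left out, but not when replicate 3, whose labels word the library protocol differently, was left out of both groups. The log2 difference was then 0.57 with an adjusted p of 0.0785, in a fit with fewer samples.

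Fermt2, which encodes kindlin-2, an adaptor that binds the tails of β chains and helps to activate integrins, fell (chr14:45458795-45530118, minus strand). It was at 26.0, 15.4, 17.5 and 27.5 in the controls and at 4.8, 8.6, 3.5 and 0.8 in the p16 samples. The lowest control was still above the highest p16 sample, and p16 replicate 4 held 1 read. The mean was 21.6 ± 6.04 in controls and 4.42 ± 3.24 in p16 samples (SD, n = 4 each), 4.88-fold lower. The log2 difference was -2.25 with an SE of 0.44 (limma adjusted p = 0.00952). Without replicate 3 of both groups the log2 difference was -2.33 and the adjusted p 0.0548, with fewer samples in the fit, and in the other 17 settings it passed. The 6 bulge markers and 2 melanocyte markers named above fell in the same samples, and their part in this difference was not tested.

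Lamb2, a laminin β chain of basement membranes, was the third gene to rise and the least firm (chr9:108479736-108490530, plus strand). Its values were 129.1, 133.5, 146.2 and 174.2 in the controls and 187.1, 189.7, 196.8 and 250 in the p16 samples. The gap between the highest control and the lowest p16 sample was small. The mean rose from 146 ± 20.3 to 206 ± 29.7 (SD, n = 4 each), or 1.41-fold, with a log2 difference of 0.50 and an SE of 0.13 (limma adjusted p = 0.0488). Leaving out any single library other than control replicate 4 ended the call (adjusted p 0.0615 to 0.158), and it passed in 7 of 18 other settings in all.

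The 250 bases before the RefSeq start of these 4 genes are shown because they are the members that passed the test (GRCm38.p6, each 5′ to 3′ on the strand of its gene). Capitals mark the letters GGGCGG, the GC box read by SP1 family factors, on either strand.
Itga3 (chr11:95076715-95076964): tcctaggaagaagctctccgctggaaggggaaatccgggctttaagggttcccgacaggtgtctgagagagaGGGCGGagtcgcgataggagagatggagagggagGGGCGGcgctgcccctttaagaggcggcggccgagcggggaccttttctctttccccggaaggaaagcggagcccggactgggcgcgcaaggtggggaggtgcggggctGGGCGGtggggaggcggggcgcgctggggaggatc
Itgb5 (chr16:33829415-33829664): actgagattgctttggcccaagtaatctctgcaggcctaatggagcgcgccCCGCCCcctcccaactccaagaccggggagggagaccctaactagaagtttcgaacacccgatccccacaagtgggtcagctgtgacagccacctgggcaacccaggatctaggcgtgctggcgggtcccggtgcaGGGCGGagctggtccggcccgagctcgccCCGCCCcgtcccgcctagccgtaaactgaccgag
Lamb2 (chr9:108479612-108479861): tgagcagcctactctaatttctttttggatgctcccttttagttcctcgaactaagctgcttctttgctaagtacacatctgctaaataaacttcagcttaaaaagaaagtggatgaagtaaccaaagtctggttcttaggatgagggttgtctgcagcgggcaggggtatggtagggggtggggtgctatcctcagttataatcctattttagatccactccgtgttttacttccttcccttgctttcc
Fermt2 (chr14:45530066-45530315): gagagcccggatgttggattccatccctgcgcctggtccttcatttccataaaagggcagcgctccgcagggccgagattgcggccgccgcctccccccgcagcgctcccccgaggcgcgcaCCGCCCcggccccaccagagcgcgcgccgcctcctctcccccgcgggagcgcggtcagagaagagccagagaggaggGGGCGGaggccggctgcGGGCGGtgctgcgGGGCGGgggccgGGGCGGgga
The box occurred 3 times before Itga3, 3 times before Itgb5, 5 times before Fermt2 and not before Lamb2. Itga3 had 2 windows, and only the window printed above is meant here. These windows were 67.6%, 65.2%, 76% and 43.6% G and C, where the median of all 32851 windows was 52.4%. Of the 52 member symbols 33 had a window, 40 windows in all, with a median of 58.6% G and C. The box was in 19 of the 40, against 32.7% of all windows. The AP-1 letters TGANTCA, the TEAD letters GGAATG and the TCF/LEF letters CTTTGA were in none of the 4 windows on either strand. They were in 1, 5 and 4 of the 40 member windows and in 6.75%, 12.6% and 13.8% of all windows. The gene that fell and 2 of the 3 genes that rose thus shared the GC box, and these matches are a description of letters only.

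None of the 5 hemidesmosome genes passed the test. Itgb4, the β chain specific to the hemidesmosome, came nearest, with 716.6, 799.5, 695.7 and 724.2 in controls and 937.9, 799.5, 895.5 and 1210.3 in p16 samples. Its p16 replicate 2 equalled control replicate 2, and the other p16 samples were above all controls. The log2 difference was 0.37 (95% interval 0.12 to 0.62, limma adjusted p = 0.104). Itgb4 passed in only 1 of 18 other settings, without p16 replicate 2 (limma adjusted p = 0.0491). Itga6, its α partner, was at 1123.1, 1420.7, 1266.2 and 1135.2 in controls and at 1445.6, 1337.4, 1489.6 and 1433.1 in p16 samples. Control replicate 2 overlapped the p16 values, and the log2 difference was 0.21 (95% interval 0.0064 to 0.42, adjusted p = 0.293 by limma).

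The cytoplasmic plate of the hemidesmosome also did not pass the test. Plec, which encodes the keratin linker plectin, was at 1316.8, 1356.5, 1217.7 and 1480.4 in controls and at 1608.7, 1376.5, 1514.4 and 1850.8 in p16 samples, a log2 difference of 0.24 with overlapping groups (95% interval 0.013 to 0.46, limma adjusted p = 0.278). Dst, whose epithelial product is the other keratin linker, was at 2767.0, 3615.2, 2339.4 and 2329.9 in controls and at 2656.1, 2912.2, 2848.0 and 2383.6 in p16 samples. Control replicate 2 had the highest and control replicate 4 the lowest Dst value of all 8 samples. Its log2 difference was -0.014 (95% interval -0.30 to 0.27), a sign that turned under total count scaling (0.022) and without control replicate 2 (0.12). Cd151, a tetraspanin that binds laminin-binding integrins, was at 862.7, 669.9, 712.4 and 886.1 in controls and at 783.6, 677.7, 648.2 and 840.3 in p16 samples. Cd151 overlapped throughout, with a log2 difference of -0.084 (95% interval -0.33 to 0.17). Itgb4, Plec and Itga6 were 3 of the 9 members with an unadjusted p under 0.05 in the upward direction.

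**Figure D2:**
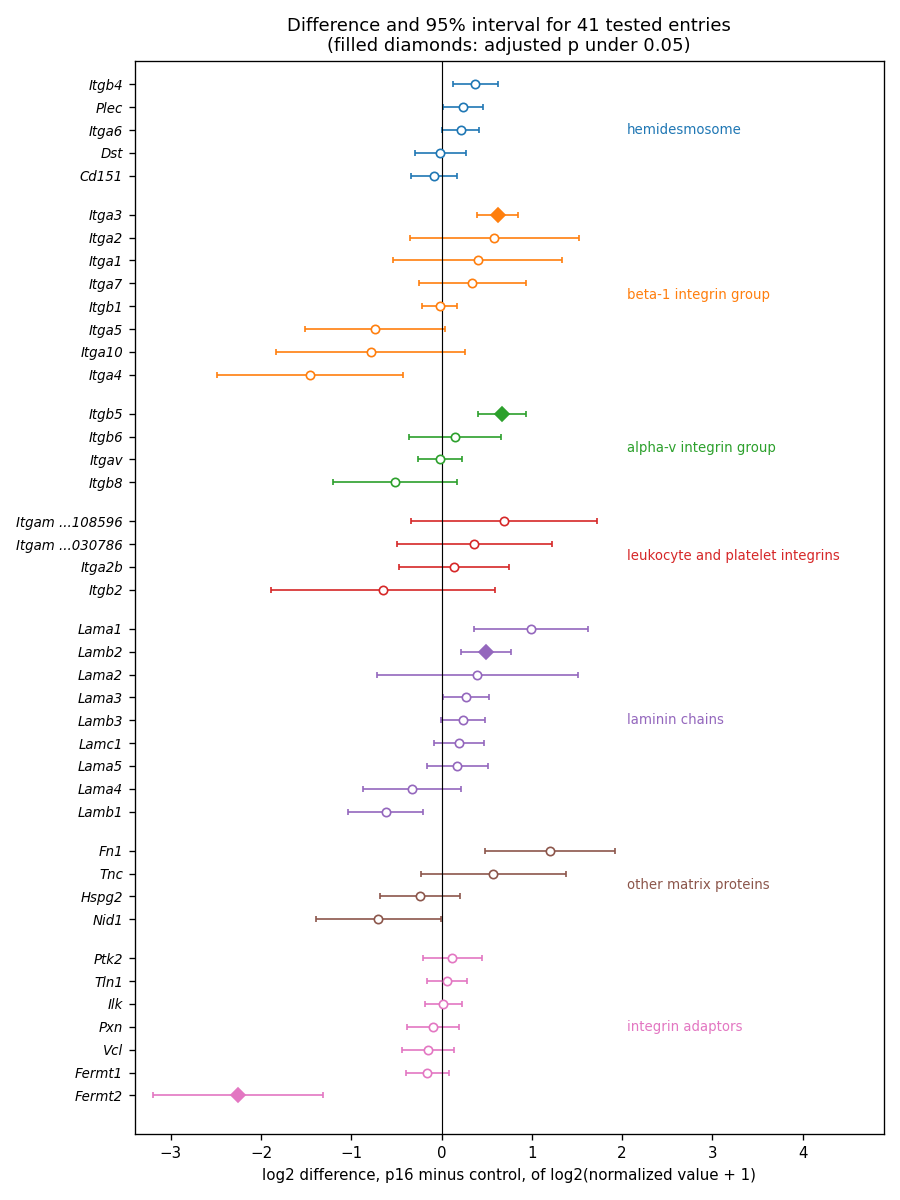
Difference between the groups on the log2(normalized value + 1) scale (x axis, p16 minus control) with its 95% interval for 41 of the 42 tested entries, grouped by role. Filled diamonds passed the limma test at an adjusted p under 0.05. Fermt2 lay farthest from 0 at -2.25, and the intervals of genes with few reads, such as Lama2 and Itgb2, were the widest.

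The integrin chains that pair with Itgb1 did not move together. Of 11 entries in this group, 8 were tested, 4 lay higher and 4 lower on average in p16 cells, and Itga3 alone passed. Itgb1 itself, the β chain that Itga3 needs, was at 473.3, 492.8, 542.0 and 453.8 in controls and at 503.7, 482.5, 483.2 and 459.6 in p16 samples. Its groups overlapped fully, with a log2 difference of -0.022 (95% interval -0.21 to 0.17) that turned to 0.014 under total count scaling. The ratio of Itga3 to Itgb1 within a sample ran from 1.52 to 1.80 in controls and from 2.32 to 3.38 in p16 samples. The ratio of Itga3 to Itga6 ran from 0.528 to 0.728 and from 0.793 to 1.08. The first ratio was chosen after the values were seen, and as counts of different transcripts these ratios compare samples and are not ratios of molecules.

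Itga4, an α chain best known from leukocytes, had 4.5, 3.9, 1.7 and 6.1 in controls and 0.8, 0.8, 1.8 and 0.0 in p16 samples, which were all at or below the limit of 3 reads per library. Control replicates 2 and 3, with 3 and 2 reads, were also within that limit, and the groups overlapped, so no fold is given. Itga4 did not pass (limma adjusted p = 0.127). Its span overlaps Cerkl on the opposite strand, so reads of the 2 genes may have been shared if strand was not used. Itga5, the classical fibronectin receptor chain, had means of 12.5 ± 3.87 and 7.38 ± 3.28 (SD, n = 4 each, adjusted p = 0.345 by limma). The collagen receptor chains Itga1 and Itga2 and the laminin receptor chain Itga7 had higher means in p16 samples and Itga10 a lower one, all with intervals that spanned 0. The reads of Itga1 may include those of Pelo, which lies within it. Itga8, Itga9 and Itga11 had at most 2 reads in any sample.

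In the group around the αv chain, 4 of 5 genes were tested and Itgb5 alone passed. Itgav itself was nearly level, at 494 ± 69.2 in controls and 486 ± 43.2 in p16 samples (SD, n = 4 each), with a log2 difference of -0.014 (95% interval -0.26 to 0.23). The ratio of Itgav to Itgb5 ran from 2.23 to 3.10 in controls and from 1.34 to 1.75 in p16 samples without overlap, a ratio also chosen after the values were seen. Itgb6, a β chain of epithelial injury, was at 19.4 ± 4.58 and 21.4 ± 3.34 (SD, n = 4 each). Itgb8, which like Itgb6 serves to activate latent TGFβ, was between 134.4 and 152.8 in controls and at 141.5, 148.3, 131.2 and 37.8 in p16 samples. Its low mean in p16 cells came from replicate 4 alone, and it did not pass (limma adjusted p = 0.484). Itgb3 had at most 2 reads.

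**Figure D3:**
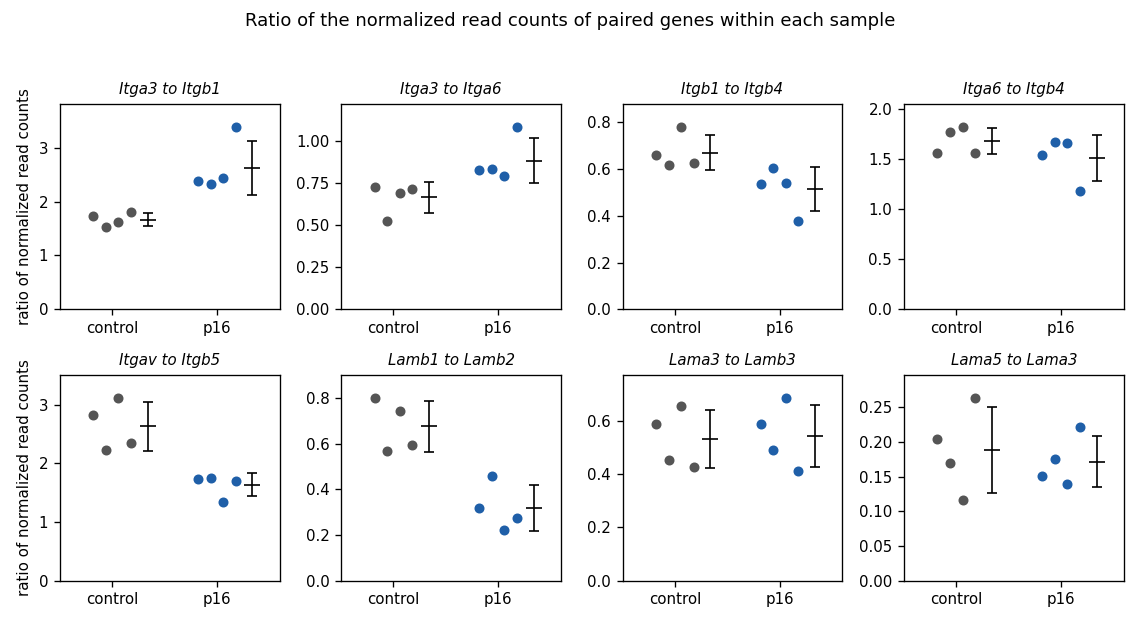
Ratio of the normalized read counts of 2 genes within each sample (y axis, no unit, from 0) for 8 pairs, in 4 control (grey) and 4 p16 (blue) samples, with mean ± SD in black. The ratios of Itga3 to Itgb1 and to Itga6 were higher and those of Itgb1 to Itgb4, Itgav to Itgb5 and Lamb1 to Lamb2 lower in all p16 samples, while the ratios of Itga6 to Itgb4, Lama3 to Lamb3 and Lama5 to Lama3 overlapped.

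Integrins of leukocytes and platelets were close to the limit of detection, in cells from which CD45+ cells had been gated out and in which Ptprc was nearly absent. Of 9 entries, 4 were tested and none passed (by limma, with none at an unadjusted p under 0.05). Itga2b, a platelet chain, was the only one with more than a few reads, at 15.9 ± 4.61 and 17.8 ± 6.01 (SD, n = 4 each). Itgb2 and both entries of Itgam stayed at or below 4.5, and the spans of the Itgam entries overlap, so their reads cannot be assigned. Itgal, Itgax, Itgad, Itgae and Itgb7 had at most 3 reads in any sample.

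Among the laminin chains 10 of 11 genes were tested, of which 8 lay higher on average in p16 cells, against 49.6% of all genes, and Lamb2 alone passed. Lama3 and Lamb3, which belong to the epidermal laminin, overlapped between the groups. Lama3 was at 528.2, 522.3, 649.8 and 441.5 in controls and at 684.4, 564.5, 715.5 and 603.5 in p16 samples (log2 difference 0.27, limma adjusted p = 0.285). Lamb3 was at 896.9, 1153.7, 988.0 and 1031.3 in controls and at 1164.2, 1151.6, 1043.6 and 1461.1 in p16 samples (log2 difference 0.24, limma adjusted p = 0.325). Their 95% intervals were 0.011 to 0.53 for Lama3 and -0.0047 to 0.48 for Lamb3. The ratio of Lama3 to Lamb3 was 0.532 ± 0.11 in controls and 0.544 ± 0.118 in p16 samples (SD, n = 4 each).

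The β chains Lamb1 and Lamb2, which occupy the same place in other laminins, had log2 differences of opposite sign. Lamb1 was at 103.1, 75.7, 108.6 and 103.9 in controls and at 59.2, 86.7, 43.4 and 69.1 in p16 samples. Control replicate 2 was low and p16 replicate 2 high, so that the groups overlapped, and the log2 difference of -0.62 did not pass (limma adjusted p = 0.107). Without p16 replicate 2 it did (limma adjusted p = 0.0387), the only 1 of 18 other settings in which it passed. The ratio of Lamb1 to Lamb2 ran from 0.567 to 0.799 in controls and from 0.221 to 0.457 in p16 samples.

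Lama1, a chain typical of embryonic basement membranes, was low in all samples and separated the groups by a narrow margin. It was at 12.6, 10.3, 14.2 and 9.2 in controls and at 41.6, 24.2, 17.7 and 17.3 in p16 samples, 2.18-fold higher on average. The log2 difference was 0.99 (95% interval 0.35 to 1.62, limma adjusted p = 0.0879). Lama1 passed in 0 of 18 other settings. Without p16 replicate 1, its highest sample, the limma adjusted p was 0.284. The remaining chains had smaller differences. Lama5 and Lamc1, which are part of the laminins widespread in epithelia, were 1.12-fold and 1.15-fold higher on average, Lama4 was 1.23-fold lower, and their intervals all spanned 0. Lama2 stayed at or below 3.9, and Lamc3 had at most 1 read.

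The other matrix proteins were sparse, and none of 4 tested genes passed. Fn1, which encodes fibronectin, was at 16.3, 12.8, 5.0 and 10.7 in controls and at 39.2, 21.9, 25.7 and 18.1 in p16 samples. Every p16 value was above every control value, by a narrow margin between p16 replicate 4 and control replicate 1, and the mean was 2.34-fold higher. The log2 difference was 1.20 (95% interval 0.48 to 1.93, limma adjusted p = 0.0691). Fn1 passed in 3 of 18 other settings, among them without p16 replicate 4 (limma adjusted p = 0.0417). Without p16 replicate 1 the limma adjusted p was 0.229. Of the fibroblast markers, Dcn was 17.7-fold higher and Fbln1 1.94-fold lower in the same samples. Col1a1 and Col1a2 differed in opposite directions without passing, and the fibroblast markers Pdgfra, Pdgfrb and Lum were at or near 0. The part of these markers in the difference of Fn1 was not tested. Nid1, which links laminin to type IV collagen, was at 7.4, 7.7, 7.5 and 6.1 in controls and at 3.2, 5.5, 4.4 and 3.3 in p16 samples, lower in all 4 (log2 difference -0.70, limma adjusted p = 0.303). Tnc, encoding tenascin-C, spread from 11.1 to 41.3 in controls and from 21.4 to 63.8 in p16 samples. Hspg2, encoding perlecan, was at 40.0 ± 10.3 and 33.1 ± 3.79 (SD, n = 4 each).

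Among the integrin adaptors all 7 genes were tested, and 6 of them differed little. Fermt1, which encodes kindlin-1, the main kindlin of keratinocytes, was at 235 ± 24.6 in controls and 211 ± 17.2 in p16 samples (SD, n = 4 each), with a log2 difference of -0.16 (95% interval -0.39 to 0.079). The ratio of Fermt1 to Fermt2 therefore ran from 8.33 to 16 in controls and from 25.5 to 61.8 in p16 replicates 1 to 3, and none is given for p16 replicate 4, with its 1 read of Fermt2. Tln1, encoding talin-1, the other activator of β chains, differed by 0.063 (95% interval -0.16 to 0.29) and Ilk, encoding integrin-linked kinase, by 0.022 (95% interval -0.19 to 0.23) on the log2 scale. Pxn, Vcl and Ptk2, which encode the focal adhesion proteins paxillin, vinculin and FAK, differed by -0.093, -0.15 and 0.12, with intervals that spanned 0. Ilk overlaps Taf10 and Vcl overlaps Ap3m1 on the opposite strand, so that these values may hold reads of both if strand was not used. Fermt2 was the only adaptor whose interval lay wholly on one side of 0.

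Genes around this module were read from 4 lists, of which 86 of 101 entries were tested. Of the 86, 4 were called higher and 8 lower, against 1.24% and 2.61% of all genes. Leaving out p16 replicate 1 gave 1 higher and 3 lower (0.539% and 1.5% of all genes). Leaving out control replicate 1 gave 1 higher and 4 lower (0.674% and 1.39% of all genes). In the focal adhesion list, 32 of 36 entries were tested, none rose and 2 fell. Actn1, an actin cross-linker, was at 899 ± 200 in controls and 509 ± 122 in p16 samples (SD, n = 4 each). Its log2 difference was -0.82 (limma adjusted p = 0.0144), without overlap between the groups. Among 18 tested laminin receptors and integrin partners, Sdc1, a heparan sulphate proteoglycan of epithelia, fell 1.40-fold (log2 difference -0.48, limma adjusted p = 0.0322), and none rose.

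In the basement membrane list, 21 of 23 entries were tested, 2 rose and 4 fell. Col7a1, which encodes the collagen of the anchoring fibrils beneath the hemidesmosome, rose from 210 ± 12.7 to 304 ± 39.6 (SD, n = 4 each), or 1.45-fold (limma adjusted p = 0.0158). Smoc2, a matricellular protein, rose from 410 ± 33.5 to 693 ± 189, or 1.69-fold (SD, n = 4 each, limma adjusted p = 0.0167). Col4a4, a type IV collagen chain, was 4.68-fold lower, and Egfl6, a basement membrane protein, 4.37-fold lower, at means of 3.78 ± 2.98 and 3.08 ± 1.3 in p16 samples (SD, n = 4 each, limma adjusted p = 0.0212 and 0.0227). Reads in the p16 samples were 7, 9, 1 and 2 for Col4a4 and 3, 5, 5 and 2 for Egfl6. Some of these samples thus lay within the limit of 3 reads. Fbln1 was 1.94-fold lower with overlapping groups (limma adjusted p = 0.0435). Smoc1 was called lower (limma adjusted p = 0.0485) at least 4.60-fold, with all p16 samples at or below the limit of 3 reads and control replicate 4 at 1 read. Col17a1, the transmembrane collagen of the hemidesmosome, did not pass (log2 difference 0.12, limma adjusted p = 0.732). Of the 8 bulge markers, 6 fell in the same samples as the 4 genes that fell here, and their part was not tested.

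Of 15 tested entries in the list of integrin ligands in the matrix, 2 rose and 1 fell. Mfge8, the gene that fell, encodes a secreted protein whose RGD motif is bound by αv integrins such as that formed with Itgb5. It was at 172.1, 119.4, 229.7 and 139.0 in controls and at 22.4, 47.6, 31.0 and 21.4 in p16 samples. All p16 values were far below all controls, 5.39-fold on average (log2 difference -2.42, SE 0.25, limma adjusted p = 8.49e-05). The call held in all 18 other settings. The matricellular proteins Thbs2 and Sparc, which act on cells and collagen, rose 1.75-fold and 1.88-fold, Thbs2 from 357 ± 36.2 to 624 ± 114 and Sparc from 631 ± 71.6 to 1187 ± 493 (SD, n = 4). Their limma adjusted p was 0.00291 and 0.0261. Sparc was highest in p16 replicate 4, at 1917.4. Of the called genes of these lists, Mfge8 and Thbs2 kept their call whichever single library was left out. Actn1 and Col7a1 kept it in 6 of 8 cases, Egfl6 and Smoc2 in 5, Col4a4 and Sparc in 4, Fbln1 and Sdc1 in 3 and Smoc1 in 1, with adjusted p up to 0.173 (limma, Smoc1 without control replicate 1).

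**Figure D4:**
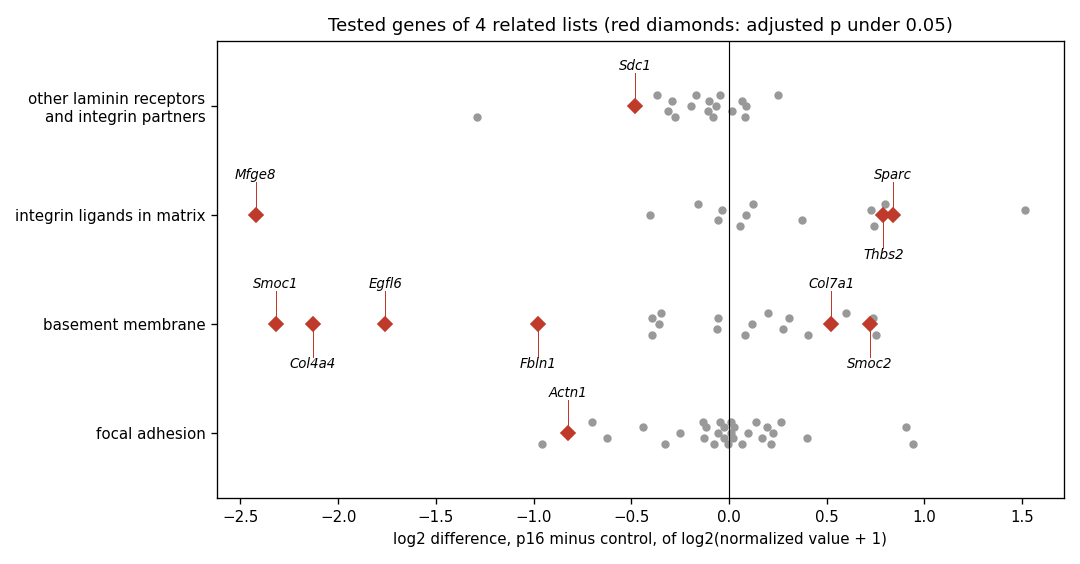
Difference on the log2(normalized value + 1) scale (x axis, p16 minus control) for 85 of the 86 tested genes of 4 lists of related genes (rows), 1 point per gene, jittered vertically. Red diamonds with names passed the limma test at an adjusted p under 0.05, 4 to the right of 0 and 7 to the left, with Mfge8 at -2.42 the farthest.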

How the data were processed

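Only the 8 samples of the first profiling were analysed. The authors used an adapted CEL-Seq2 protocol for 3′ libraries, Cutadapt for trimming, Tophat2 for alignment (GRCm38) and DESeq2 for testing, and the labels' processing notes also name HTSeq. The use of strand or molecular identifiers is not given in the sources used here. Each deposited signal value is the count of a gene over the size factor of its sample. The authors' mean signal per group, log2 ratio, test score, p-value and adjusted p-value columns were not used. Low values were whole multiples of 1 read in each sample, which gave whole reads for 100% of values within 0.1 read.

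Genes with a mean of at least 1 were tested with limma 3.58.1 (eBayes with trend, two-sided, R 4.3.3) on log2(normalized value + 1), which understates the change of low genes, and called at a Benjamini-Hochberg adjusted p under 0.05. The table was known to hold such values when the test was chosen. Called members, members with an unadjusted p under 0.05 and a fixed set of core genes were given in every sample, and called genes of the related lists were named. Other genes were given by means or ranges. A few genes named by it are left out of the text and plots. Ratios had no test. The gene module and all lists were chosen with earlier results of these data known. Coordinates are GENCODE M21 spans on GRCm38, and promoter windows are from RefSeq on GRCm38.p6. A count of 3 reads per library was the limit of detection, which covers counting error only. No 2 libraries of a group agreed within sampling noise. The labels call samples replicates, each a pool of 3 mice, and the 3 independent experiments that gave them are not assigned to samples in the sources used here. Same-numbered samples of the 2 groups deviated together only weakly (correlations 0.0044 to 0.083 over 12782 genes). Samples with different numbers gave -0.0997 to 0.058, and the highest value was that of replicate 4 of both groups. The replicate number was left out of the model, and whether same-numbered samples shared an experiment is not known. On simulated counts the scripts were tested before use. Alternatives were a pseudocount of 0.1, no filter or a mean of at least 10, a replicate block, each library left out, replicate 3 of both groups left out, total count scaling, unadjusted p, and, on the recovered counts, edgeR 4.0.16 (quasi-likelihood test with TMM, with and without its filter) and DESeq2 1.42.0. A correction that assumes a ceiling of 12288 reads per gene and library was chosen after seeing the data.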

Additional observations from a re-analysis of the deposited data

Results flagged for a closer look

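In 8 of 84 groups of 4 values (each tested member in each group), the highest or lowest sample stood apart from the other 3 by more than Dixon's 95% critical value, where chance gives about 1 in 20. In p16 replicate 4, Lamb2 was at 250 (others 187.1 to 196.8), Lama5 at 134 (99.2 to 103.1), Itgb6 at 26.3 (19.2 to 20.4), Itgb8 at 37.8 (131.2 to 148.3) and Fermt1 at 185 (216.3 to 221.5). Lamb1 was at 75.7 in control replicate 2 (others 103.1 to 108.6). Itga10 was at 0 in p16 replicate 1 (others 0.8 to 0.9) and the Itgam entry ENSMUSG00000108596 at 3.1 in p16 replicate 2 (others 1.6 to 1.8), both differences of a few reads. Of the 8, 5 were in p16 replicate 4, the library that differed most from the rest of its group.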

How the results depend on the processing

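Itga3, Mfge8 and Thbs2 passed in every setting tried. Leaving out 1 library gave 69 to 196 genes called higher and 177 to 343 lower, 2 to 3 members higher and 1 to 2 lower, and 1 to 5 related genes higher and 3 to 7 lower. Without replicate 3 of both groups these counts were 66 and 157 for all genes, 1 and 0 for the members, and 2 and 3 for the related genes, with fewer samples in the fit. At an unadjusted p under 0.05 they were 897 and 1141, 9 and 4, and 10 and 18. With the replicate block, 216 genes were higher and 392 lower, 4 members were higher (Fn1 joined) and 1 lower, and 7 related genes were higher and 7 lower. The sources used here do not say whether the replicate numbers pair the samples.

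The log2 difference of Itgb1 was near 0 and turned to 0.027 without control replicate 3, 0.00087 without p16 replicate 4, 0.026 without replicate 3 of both groups and 0.014 under total count scaling, with -0.058 to 0.027 over the single libraries left out. That of Dst turned to 0.12 without control replicate 2, 0.045 without p16 replicate 4, 0.022 under total count scaling and 0.027 with the count ceiling correction, with -0.088 to 0.12 over the libraries left out. The cause was not tested. That correction moved no tested member by more than 0.046 on the log2 scale. Of 562 values for 30 named genes in 19 other settings, 478 kept their direction and their side of the threshold, 62 no longer passed, 14 newly passed and 8 turned. The unadjusted p, counted among these settings, is the main fit without correction, so it can only keep or add passes. Apart from it, only Fn1 (3 settings), Lamb1 (1 setting) and Itgb4 (1 setting) newly passed. Itga4 and Nid1 had at most 6 and 10 reads in any library, and how large a difference could be detected at that depth was not tested. With 4 pools per group, p-values measure the spread between these pools.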
